A study of Mus musculus with 28 samples.

Results

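The genes that encode subunits of ionotropic glutamate receptors and GABA-A receptors were followed in mouse motor cortex. They were chosen by symbol: the Gria genes (AMPA receptors), the Grik genes (kainate receptors), the Grid genes (delta receptors), the Grin genes (NMDA receptors), and all genes whose symbol starts with Gabr followed by a subunit letter and number. The rule found 37 of the 24391 genes in the table, 18 of glutamate receptors and 19 of GABA-A receptors, of which 6 are alpha, 3 beta, 3 gamma and 7 other subunits.

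All 14 mice carried Cx3CR1-Cre and TRAPfl, an allele that tags ribosomes for affinity purification (TRAP) in cells where Cre has acted. Each mouse gave a TRAP library of mRNA bound to tagged ribosomes and a library of the total lysate. The lysate is whole motor cortex, although its libraries also carry the label of microglia as cell type. The 4 groups of 7 libraries were TRAP after 1 h of running on the rotarod, TRAP from the home cage, lysate after the run and lysate from the home cage. Each treatment held 4 females and 3 males by the titles, with 3 mice in cohort 2 and 4 in cohort 1, the batches of the labels. The age of the mice is not stated in the labels.

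Ionotropic glutamate receptors are ion channels built of several subunits that open when glutamate binds. AMPA receptors carry most fast excitation, NMDA receptors admit calcium and need Grin1 in every channel, and kainate receptors modulate release and excitability. GABA-A receptors are chloride channels, most often built of alpha, beta and gamma subunits together, and carry fast inhibition. In the cortex neurons hold most of these subunits, while astrocytes and oligodendrocyte precursors hold some of them, and microglia are not their main source.

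Libraries held 70090518 to 241381845 counts. Over 12 microglial marker genes the summed level in CPM (counts scaled to library size) ran from 27460 to 80630 in run TRAP and between 30060 and 63020 in home cage TRAP. In lysate the same sum lay between 434 and 581 CPM after the run and between 414 and 576 in the home cage. Over 15 pan-neuronal genes run TRAP held 2821 to 9611 CPM and home cage TRAP 2725 to 7531, against 11000 to 19380 CPM in run lysate and 11180 to 17700 in home cage lysate. TRAP libraries thus still held neuronal RNA, and whether a receptor mRNA there came from tagged ribosomes or from carried-over tissue RNA cannot be told apart. In these bulk samples, fewer cells of a type and less RNA per cell cannot be told apart either. Of the 6 mice of cohort 2, 2 run mice went against their titles by 4 Y-linked genes: the mouse labelled Male1 had 0.0 CPM, and the mouse labelled Female2 had 21.48 to 34.70 CPM. Treatment and fraction are not checked by those genes, and each comparison was repeated without both mice.

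In the motor cortex lysate, GABA-A receptor subunits had the highest levels per length. In home cage lysate the GABA-A subunits summed to 373 ± 137 CPM per kilobase of exon (SD, n = 7) and the glutamate receptor subunits to 130 ± 6.75. The levels named next are CPM per kilobase in the 7 home cage lysate libraries. Gabrb2, the beta subunit most often found at synapses with an alpha and a gamma partner, stood at 19.9 at the lowest, 71.1 at the median and 86.0 at the highest.

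Gabra4, which with Gabrd forms receptors outside synapses, averaged 42.6 ± 23.5 (SD, n = 7). Gria2, the AMPA subunit that blocks calcium entry, stood at 18.1, 44.9 and 55.5 from lowest to highest. Gabra3 averaged 27.9 ± 9.12, Gabrd 26.0 ± 12.5 and Gabra5 24.3 ± 5.38. Gria1, the AMPA subunit tied to activity-dependent insertion, averaged 19.8 ± 2.77, Gria3 18.0 ± 4.94 and the kainate subunit Grik5 13.4 ± 9.58. In the order of levels, the gap between Gabrb2 and Gabra4 and that between Gria2 and Gabra3 exceeded the SD of the gap over libraries. The gaps between Gabra4 and Gria2, Gabra3 and Gabrd, Gabra5 and Gria1, Gria1 and Gria3, and Gria3 and Grik5 did not.

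Below them, Gria4, found mainly in inhibitory interneurons, averaged 11.1 CPM per kilobase and Grin1 10.2 ± 8.17. The NMDA subunits that join Grin1 were lower: Grin2c averaged 5.09 ± 3.79, Grin2b 2.52 ± 0.877, Grin3a 1.74, Grin2d 1.39, Grin3b 0.113 and Grin2a 0.0838. The medians of Grin2c and Grin2b were closer than their means, at 2.53 and 2.22. In lysate of both treatments, Grin2c (GC content 62.1%) ran from 35.5 to 52.8 CPM in cohort 2 and from 6.33 to 14.7 in cohort 1. Grin2a, usually described as a major NMDA subunit of the adult cortex, had the lowest mean of the NMDA subunits, with 5556 counts over the 28 libraries and at least 1 count in 27. The reason was not tested. The remaining kainate subunits averaged 3.20 (Grik3), 1.85 (Grik2), 1.56 (Grik4) and 0.992 (Grik1), and the delta subunit Grid1 averaged 0.755.

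Of the remaining GABA-A subunits, Gabra2 averaged 6.55 CPM per kilobase, Gabrg1 4.91, Gabrb1 3.13 and Gabrg3 0.304. Gabrr2, a rho subunit of a kind best known from the retina, averaged 0.342 and had counts in all 7 of these libraries. The theta subunit Gabrq averaged 0.0639, and the epsilon and pi subunits and the remaining rho subunits were rarely detected. Gabrp had 0 counts in all 28 libraries, which allows up to 0.000813 CPM over the summed libraries, counting error only. Gabra6, the alpha subunit of cerebellar granule cells, had 25 counts in 1 library, Gabrr3 22 in 4, Gabre 32 in 5 and Gabrr1 123 in 6. These 5 did not pass the filter on low counts in any comparison. Gabrr2 and Gabrq, with 1881 counts in 20 libraries and 1003 in 16, passed it everywhere except in the run comparison of TRAP. So 32 members were tested between the fractions and in lysate, and 30 between the treatments in TRAP.

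**Figure D1:**
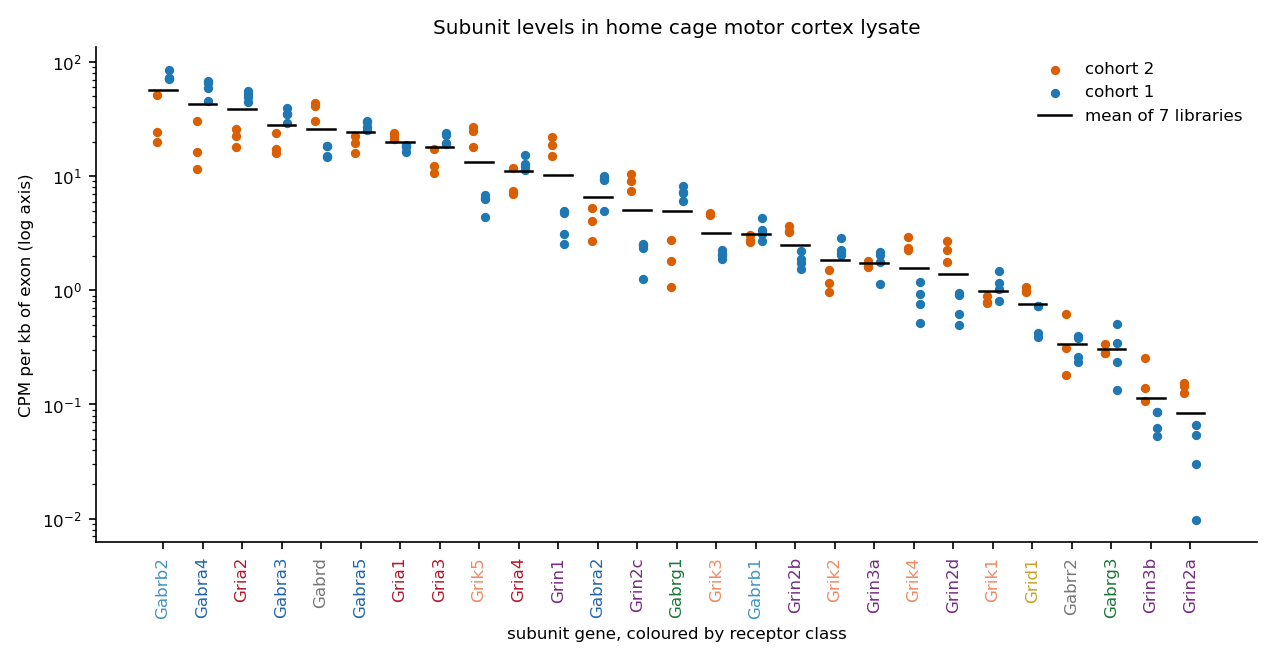
Level of 27 subunits with a count in each of the 7 home cage lysate libraries, in CPM per kilobase of exon on a log axis, with 1 point per library (orange for cohort 2, blue for cohort 1) and a bar at the mean. Gabrb2 is the highest of those drawn, with libraries from 19.9 to 86.0, and Grin2a is the lowest.

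Much of the spread within a group lay between the cohorts. In lysate, Gabra4 had 69.7 at the lowest, 88.2 at the median and 184 CPM at the highest in cohort 2, against 280, 323 and 417 in cohort 1. Gria2 had 258, 303 and 407 CPM in cohort 2 and 616, 739 and 862 in cohort 1. The exons of these genes are poor in G and C, with GC contents of 42.2% and 36.8%, and their cohorts did not overlap. Such separation was common in lysate. Of the 13244 genes with a mean of at least 1 CPM, 24.2% were lower in cohort 2 without overlap and 32.0% higher. Among the 29 members of that level, 8 were lower (27.6%) and 12 higher (41.4%).

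GC-rich members went the other way in lysate. Grin1 (GC content 59.4%) had 146, 190 and 212 CPM in cohort 2, against 24.7, 36.2 and 52.6 in cohort 1. Grik5 (61.7%) had 93.9, 126 and 159 CPM in cohort 2 and 21.0, 33.0 and 40.5 in cohort 1. Over the 29 members with a mean of at least 1 CPM, the log2 ratio of the cohort medians correlated with GC content at Spearman's rho 0.87 in lysate and 0.79 in TRAP. Over the 13244 genes of that level rho was 0.82 in lysate and 0.76 in TRAP. These are descriptions across genes that share the same libraries. The part of GC content in the order of levels above was not tested.

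**Figure D2:**
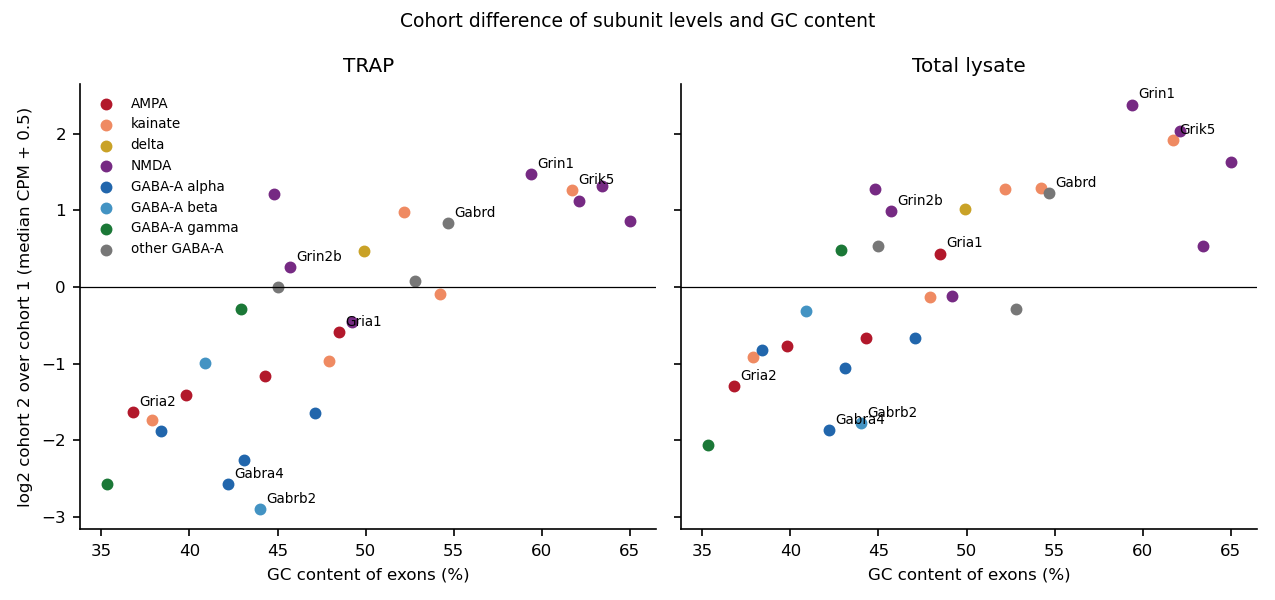
Log2 ratio of the median CPM in cohort 2 over cohort 1 with 0.5 CPM added (vertical) against exon GC content in percent (horizontal), 1 point for each of 28 members, for TRAP and for lysate. The ratio rises with GC content in both fractions (rho 0.79 in TRAP and 0.87 in lysate over the 29 members with a mean of at least 1 CPM, not all of them drawn).

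Several GABA-A genes lie side by side in the genome (coordinates in GRCm38, GENCODE annotation). A run of 4 on chromosome 5 holds Gabrg1, Gabra2, Gabra4 and Gabrb1 over 1397991 bases. On the X chromosome Gabre, Gabra3 and Gabrq lie within 586604 bases, and on chromosome 4 Gabrr2 and Gabrr1 within 100590 bases. Gabra4 and Gabrb1 point away from each other, and their annotated starts overlap.

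The promoter sequences of Gabra4, Gabrb1 and Grik5 are shown because these genes are named in the results on the fractions. The first 2 are head-to-head neighbours whose ratios differed, and Grik5 was the one member called higher in TRAP. A link between promoter sequence and ratio was not tested. Each line gives the 250 bases before the start, 5′ to 3′ on the gene's strand, from RefSeq on build GRCm38.p6. Capitals mark matches to a GC box (GGGCGG or CCGCCC), an ETS core (GGAAGT or ACTTCC) or the core of a cAMP response element (CRE; TGACG or CGTCA). The regions are chr5:71658309-71658558 on the minus strand for Gabra4, chr5:71657671-71657920 on the plus strand for Gabrb1 and chr7:25072370-25072619 on the minus strand for Grik5.
Gabra4: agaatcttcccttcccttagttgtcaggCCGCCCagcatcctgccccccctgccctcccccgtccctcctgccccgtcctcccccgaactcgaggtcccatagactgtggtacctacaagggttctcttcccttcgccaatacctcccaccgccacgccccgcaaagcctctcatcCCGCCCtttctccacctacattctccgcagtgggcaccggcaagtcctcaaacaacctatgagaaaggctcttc
Gabrb1: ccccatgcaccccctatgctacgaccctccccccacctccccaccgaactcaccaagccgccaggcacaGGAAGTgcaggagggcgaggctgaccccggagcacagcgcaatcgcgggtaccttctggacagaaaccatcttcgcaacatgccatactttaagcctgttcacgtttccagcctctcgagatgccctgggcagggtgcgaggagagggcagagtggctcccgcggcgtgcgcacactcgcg
Grik5: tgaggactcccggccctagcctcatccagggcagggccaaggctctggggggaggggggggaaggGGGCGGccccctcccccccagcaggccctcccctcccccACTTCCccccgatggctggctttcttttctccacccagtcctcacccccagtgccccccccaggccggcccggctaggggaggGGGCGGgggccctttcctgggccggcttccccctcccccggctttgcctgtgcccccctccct

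The Gabra4 window held 2 GC boxes, the Gabrb1 window 1 ETS core, and the Grik5 window 2 GC boxes and 1 ETS core. Their GC contents were 61.2%, 64.4% and 75.2%. The RefSeq starts of Gabra4 and Gabrb1 lie 387 bases apart, and the genes overlap across these bases. Each of their printed windows therefore lies inside the other gene. Searched on both strands, a GC box was found in 11 of 29 promoters of 25 members (37.9%), against 32.7% of all 32851 promoters. An ETS core was in 3 of the 29 (10.3%), against 19.7% of all, and a CRE core in 2 (6.90%), against 17.8% of all. A match describes letters in the window and is not evidence of binding.

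Receptor subunits were mostly lower in TRAP than in lysate. By edgeR's quasi-likelihood test with Benjamini-Hochberg adjustment over all 16716 genes tested, 30 of 32 members were lower and 1 was higher at an adjusted p under 0.05. Over all genes tested 40.1% were lower and 34.0% higher. The median log2 fold (TRAP over lysate) of the tested members was -1.62, and that of all genes tested -0.20. The pan-neuronal list had a median of -1.45 with 15 of 15 lower, and the microglial list one of 6.60 with 12 of 12 higher, Cx3cr1 at 6.92. Of the members, 23 were lower under every one of 11 alternative settings and with each mouse left out.

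The AMPA subunits were all lower, with a median log2 fold of -1.88. Gria1 had 35.7 CPM at the lowest, 50.6 at the median and 76.9 at the highest of 14 TRAP libraries, against 95.9, 115 and 152 in lysate. The fractions did not overlap. Its log2 fold was -1.20 ± 0.12 (SE, adjusted p = 1.63e-10, edgeR), the smallest drop in its class. Gria4 had 4.94, 11.0 and 32.4 CPM in TRAP and 44.0, 70.2 and 96.3 in lysate, again without overlap. Its log2 fold was -2.48 ± 0.18 (adjusted p = 2.55e-13, edgeR), the largest drop in the class. Gria2, at -1.87 ± 0.10, and Gria3, at -1.89 ± 0.13, lay between them.

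Within mice Gria1 and Gria4 mostly lay apart. The log2 ratio of TRAP to lysate was higher for Gria1 than for Gria4 in 14 of 14 mice, by 1.31 ± 0.62 (SD), and higher than for Gria2 in 13 of 14, by 0.68 ± 0.38. Gria2 lay above Gria4 in 12 of 14 mice, by 0.63 ± 0.48 and from -0.27 to 1.76. As a share of the summed AMPA level per kilobase, Gria1 made up 36.9 ± 9.31% in TRAP and 26.2 ± 10.2% in lysate (SD, n = 14 each), and was higher in TRAP in 14 of 14 mice. Gria4 made up 7.28 ± 2.06% in TRAP and 12.4 ± 1.14% in lysate, and was higher in TRAP in 1 of 14 mice.

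Among kainate subunits Grik5 stood apart. Grik5, which binds glutamate with high affinity but forms channels only with Grik1 to Grik3, had 40.1, 64.6 and 153 CPM in TRAP and 21.0, 38.9 and 159 in lysate. The fractions overlapped, and cohort 2 held the high libraries in lysate. It was the one member called higher, with a log2 fold of 0.40 ± 0.13 (adjusted p = 0.00747, edgeR), and TRAP was above lysate in 11 of 14 mice. That call did not hold with scaling on library totals alone (log2 fold -0.11), without the cohort term (0.19 ± 0.33), after a correction for GC content and exon length (0.17 ± 0.09) or in cohort 2 alone (-0.05). It was lost when the home cage mouse Female2 of cohort 1 was left out, at a log2 fold of 0.27.

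The other kainate subunits were lower in TRAP. Grik2, a core pore-forming subunit, had 1.08, 4.73 and 15.9 CPM in TRAP and 10.5, 22.1 and 37.7 in lysate. Its log2 fold was -2.19 ± 0.21 (adjusted p = 1.08e-10, edgeR), the largest drop among the kainate subunits. The fractions overlapped with both cohorts together, but not within either cohort. In cohort 2 Grik2 ran from 1.08 to 3.34 CPM in TRAP and from 10.46 to 19.85 in lysate. In cohort 1 it ran from 4.47 to 15.91 CPM in TRAP and from 19.15 to 37.71 in lysate. Grik1 stood at -1.64 ± 0.30, Grik4 at -1.59 ± 0.19 and Grik3 at -1.16 ± 0.16. The within-mouse ratio of Grik5 lay above that of Grik2 in 14 of 14 mice, by 2.54 ± 0.81. Grik5 made up 83.9 ± 7.05% of the kainate level per kilobase in TRAP and 59.1 ± 13.1% in lysate, higher in TRAP in 14 of 14 mice. The delta subunit Grid1 was lower, at -0.71 ± 0.24. It was not called without the run mice labelled Male1 and Female2 of cohort 2 (-0.59, adjusted p = 0.0626, edgeR) or in cohort 1 alone (-0.28, 0.517).

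The NMDA subunits had a median of -1.13 over the 7 members, 6 of them lower. Grin2b, which gives NMDA receptors slow kinetics, had 23.3, 33.6 and 49.4 CPM in TRAP and 30.8, 51.2 and 91.1 in lysate. The fractions overlapped, and its log2 fold was -0.62 ± 0.10 (adjusted p = 2.76e-06, edgeR). Grin1, the obligatory subunit, had 14.5, 26.0 and 70.8 CPM in TRAP and 24.7, 50.4 and 212 in lysate, with a log2 fold of -1.31 ± 0.14 (adjusted p = 7.85e-10, edgeR). The within-mouse ratio of Grin2b was above that of Grin1 in 13 of 14 mice, by 0.66 ± 0.40.

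The remaining NMDA subunits were Grin2a at -1.59 ± 0.47, Grin3a at -1.19 ± 0.13, Grin2d at -1.13 ± 0.18 and Grin2c at -0.81 ± 0.16, all called lower. Grin3b, an NMDA subunit best known from motor neurons, had a log2 fold of 0.91 ± 0.66 and was not called (adjusted p = 0.213, edgeR). Its level was at most 1.96 CPM in TRAP and 0.850 in lysate. The counting setting for strand is not given in the sources used here, and the exons of Grin3b and Grin1 overlap genes on the opposite strand by 1059 and 1307 bases, so reads of these partners cannot be told apart.

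All 14 tested GABA-A members were lower in TRAP, with a median of -2.05. Gabra4 had 6.32, 53.7 and 98.6 CPM in TRAP and 69.7, 284 and 417 in lysate. Its log2 fold was -2.53 ± 0.17 (adjusted p = 3.80e-14, edgeR). The fractions overlapped with both cohorts together, but not within either cohort. In cohort 2 Gabra4 ran from 6.32 to 20.05 CPM in TRAP and from 69.7 to 184 in lysate. In cohort 1 it ran from 47.96 to 98.55 CPM in TRAP and from 280 to 417 in lysate. Gabra3 stood at -2.11 ± 0.19 and Gabra5, the subunit of extrasynaptic receptors in deep layers and hippocampus, at -2.04 ± 0.17. Gabra2, placed at the axon initial segment among other sites, had the smallest drop of the alpha subunits, at -1.28 ± 0.18 (adjusted p = 1.45e-07, edgeR).

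Of the beta subunits, Gabrb2 stood at -1.41 ± 0.22 and Gabrb1 at -0.93 ± 0.18. Gabrb1 had 7.87, 19.1 and 55.1 CPM in TRAP and 33.7, 38.4 and 59.3 in lysate, and the fractions overlapped (adjusted p = 2.48e-05, edgeR). Of the gamma subunits, Gabrg1, common in glia and the amygdala, stood at -2.47 ± 0.21 and Gabrg3 at -0.999 ± 0.276. Gabrd stood at -1.77 ± 0.12. Gabrr2 and Gabrq had the lowest fitted folds, -3.57 ± 0.83 and -3.25 ± 1.11, at levels of at most 0.989 and 0.891 CPM in TRAP and 1.53 and 1.83 CPM in lysate. In all, 6 members had fractions that did not overlap with both cohorts together, all lower in TRAP, among them Gria1, Gria3, Gria4, Grik1 and Gabra3. Over all genes tested 4.47% were lower without overlap and 11.8% higher.

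Neighbours in the genome did not keep the same ratio. The within-mouse ratio of Gabrb1 lay above that of its head-to-head neighbour Gabra4 in 14 of 14 mice, by 1.53 ± 0.74 (SD). Gabra2 lay above Gabra4 in 14 of 14 mice, by 1.28 ± 0.39. Gabra2 made up 6.60 ± 1.91% of the alpha level per kilobase in TRAP, against 3.25 ± 1.06% in lysate (SD, n = 14 each), and was higher in TRAP in 14 of 14 mice. These pairs were picked from class and position with the folds known, and carry no test.

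**Figure D3:**
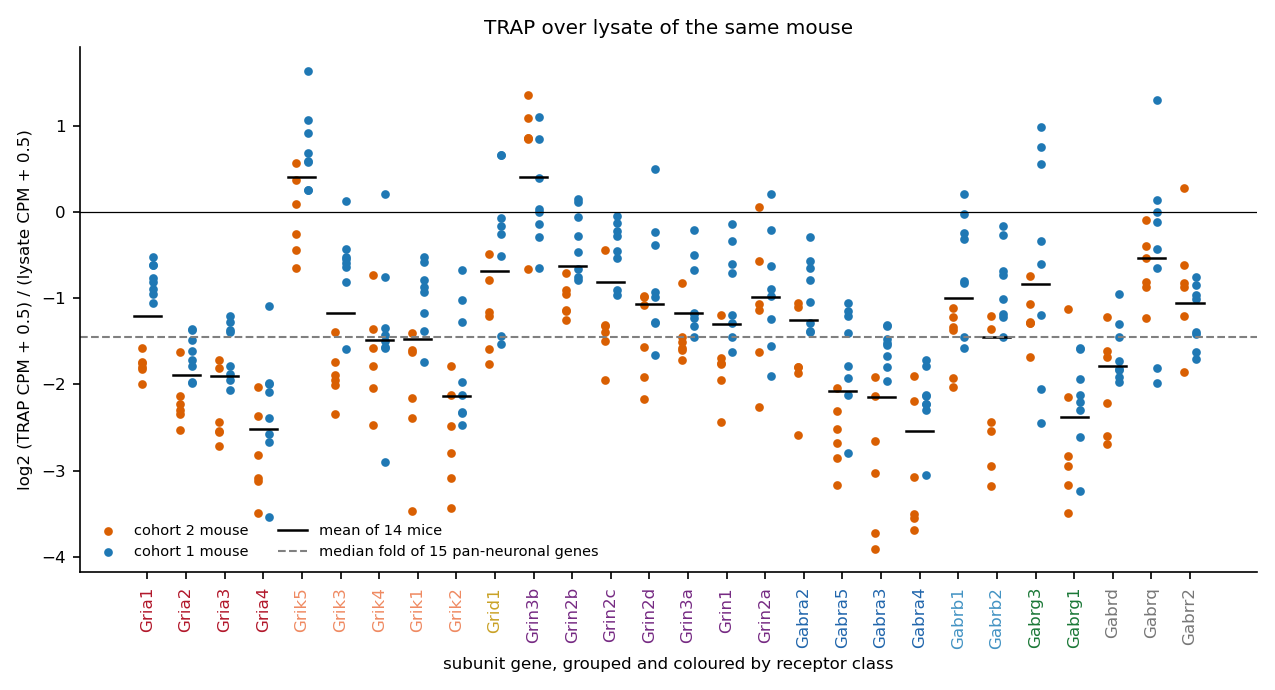
Log2 ratio of TRAP CPM over lysate CPM (0.5 CPM added to each) in each of 14 mice, by subunit, with orange points for cohort 2, blue points for cohort 1 and a bar at the mean. The dashed line is the median fold of the 15 pan-neuronal genes, -1.45, and Grik5 lies above 0 in 11 of 14 mice.

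Across the 32 tested members the TRAP over lysate fold correlated with GC content at Spearman's rho 0.50, against 0.12 over 16078 genes with an annotated GC content. The members share libraries and genomic runs, and rho is given as a description. With the GC and length correction 30 members were again lower, with a median of -1.50, and 0 were higher.

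To set the subunits against neuronal RNA in general, the libraries were scaled on the summed counts of the 15 pan-neuronal genes. On that scale the median log2 fold (TRAP over lysate) of all genes was 1.40, and 74.7% of genes were higher and 3.45% lower. Of the 32 members, 11 were higher, 12 were lower and 9 were not called by edgeR's quasi-likelihood test. The 18 glutamate receptor members held 10 higher and 4 lower, and the 14 tested GABA-A members 1 higher and 8 lower. The pan-neuronal list itself held 5 higher and 3 lower of 15, with a median of 0.14. Snap25 alone made up 50.5% of the scaling sum in TRAP and 57.6% in lysate.

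On the neuronal scale 6 of 7 NMDA subunits were higher, a share near the 74.7% of all genes. Grin3b stood at 2.54 ± 0.66 (adjusted p = 0.000888, edgeR), Grin2b at 0.96 ± 0.09 (3.94e-11), Grin2c at 0.80 ± 0.17 (0.000108), Grin2d at 0.46 ± 0.18 (0.0232), Grin3a at 0.42 ± 0.15 (0.0120) and Grin1 at 0.28 ± 0.12 (0.0376), with the adjusted p in parentheses. Grik5 stood at 1.99 ± 0.13 (adjusted p = 4.77e-15, edgeR), Grid1 at 0.86 ± 0.23, Grik3 at 0.43 ± 0.13, Gria1 at 0.39 ± 0.09 and Gabrb1 at 0.63 ± 0.15. With the mouse as a block, Grin1 (adjusted p = 0.0556, edgeR) and Grin2d (0.0512) were not called, while Gabra2 became higher at 0.31 (0.0261) and Gabrq lower at -3.48 (0.0385). Over 7 alternatives the call of Grin2d held in 1 and that of Grin1 in 2.

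The members that were lower on the neuronal scale included Gabrr2 at -1.97 ± 0.82, Gabra4 at -0.94 ± 0.13 (adjusted p = 4.63e-08, edgeR) and Gria4 at -0.92 ± 0.14. Gabrg1 stood at -0.88 ± 0.18, Grik2 at -0.62 ± 0.17, Gabra3 at -0.52 ± 0.14 and Gabra5 at -0.48 ± 0.12. Gria3 (-0.30 ± 0.10) and Gria2 (-0.28 ± 0.08) were close to the scale's 0. After a correction for GC content and exon length Gria2 turned to 0.28 (adjusted p = 0.0156, edgeR). Of the members without a call, Gabrg3 stood at 0.59 (adjusted p = 0.0514, edgeR), Gabra2 at 0.30 (0.0647), Gabrb2 at 0.18, Grik4 at 0.04, Grin2a at -0.01, Grik1 at -0.06, Gabrd at -0.17 and Gabrq at -1.66.

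Across 7 alternatives and with each mouse left out, 5 members were called higher each time (Grik5, Grin2b, Grin2c, Grid1 and Gabrb1) and 3 lower each time, Gabra4 and Gria4 among them. Over the alternatives Grik5 ran from 1.66 to 2.06, Grin2b from 0.64 to 1.30, Gabrb1 from 0.32 to 0.99, Gabra4 from -1.27 to -0.71 and Gria4 from -1.22 to -0.78. The neuronal scale does not separate cell types. On it 74.7% of all genes were higher and 3.45% lower, and the marker lists were near or below that share of higher genes. Beside these members, astrocyte markers had a median of 0.86 with 8 of 10 higher and precursor markers 0.65 with 5 of 8 higher. Excitatory neuron markers had a median of 0.54 with 5 of 8 higher. Inhibitory neuron markers had a median of 0.41, with 6 higher and 2 lower of 10. The part of those cells in the members' ratios was not tested.

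**Figure D4:**
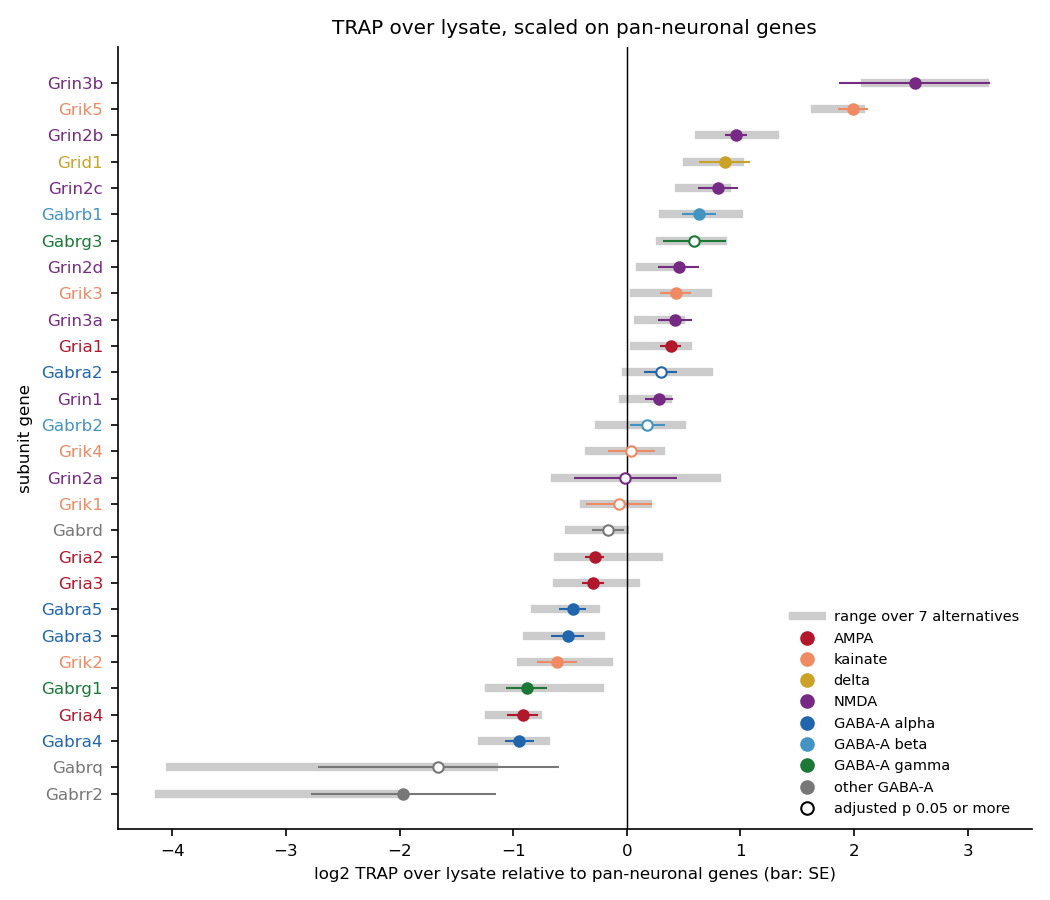
Log2 fold of TRAP over lysate scaled on 15 pan-neuronal genes, by subunit, with the SE as a dark bar and the range over 7 alternatives as a grey bar. Filled points have an adjusted p under 0.05, with Grik5 at 1.99 and Gabra4 at -0.94.

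The TRAP over lysate ratio of the members differed between the cohorts. The difference (cohort 2 minus cohort 1) was below 0 past an adjusted p of 0.05 for 16 of 32 members and above it for none, by edgeR's quasi-likelihood test of the interaction. At an unadjusted p under 0.05 there were 19 below and 0 above. Over all genes tested 11.9% were lower and 8.56% higher, and the median was -0.77 for the tested members and -0.05 for all genes. Gria1 had a within-mouse log2 ratio of -1.99 to -1.58 in the 6 mice of cohort 2 and of -1.06 to -0.52 in the 8 of cohort 1. The cohorts did not overlap, and the difference was -1.002 ± 0.137 (SE, adjusted p = 1.16e-05, edgeR).

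Grik3 differed by -1.28 ± 0.23 (adjusted p = 0.000196, edgeR), Gabra3 by -1.27 ± 0.27 (0.00135) and Gabrb2 by -1.45 ± 0.35 (0.00370). Gabrb2 had 12.9, 32.1 and 53.7 CPM in the TRAP libraries of cohort 2 and 194, 241 and 409 in those of cohort 1, with no overlap. In lysate it was also lower in cohort 2 without overlap, at 103, 134 and 329 CPM against 348, 458 and 547 in cohort 1. The log2 ratio of the cohort medians was thus -2.89 in TRAP and -1.77 in lysate. In TRAP, 20.6% of the 13244 genes with a mean of at least 1 CPM were lower in cohort 2 without overlap and 25.1% higher. Among the 29 members of that level, 13 were lower (44.8%) and 2 higher (6.90%) in TRAP. For the TRAP over lysate ratio, 14 members were called lower in cohort 2 after the GC and length correction. Without the run mice labelled Male1 and Female2 of cohort 2 there were 12. The pan-neuronal list had 13 of 15 lower with a median of -0.75, and the microglial list 4 of 12 higher with a median of 0.44, so markers moved along with the members. Their part in the difference was not tested. Fitted within the cohorts, Gabrb2 stood at -2.20 in cohort 2 alone and at -0.82 in cohort 1 alone.

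After the run, no member was called in TRAP. Of 30 members tested, 0 were higher and 0 lower by edgeR's quasi-likelihood test with Benjamini-Hochberg adjustment, against 0.046% of all genes higher and 0.0% lower. At an unadjusted p under 0.05 there were also 0 members, against 1.92% of all genes higher and 1.63% lower, and DESeq2 and limma-voom called 0. The median log2 fold (run over home cage) was 0.06 for the tested members and 0.001 for all genes. Grin1 had the smallest p: its TRAP level was 14.5, 29.9 and 70.8 CPM after the run and 15.4, 20.0 and 56.4 in the home cage, with overlap. Its log2 fold was 0.29 ± 0.16 (unadjusted p = 0.0846, adjusted p = 0.999, edgeR).

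Grik5 had 40.1, 68.1 and 153 CPM in run TRAP and 42.5, 52.4 and 121 in home cage TRAP, with a log2 fold of 0.24 ± 0.14 (unadjusted p = 0.0983, edgeR). Gabra5 stood at 0.33 ± 0.24 and Grin2b at -0.17 ± 0.13, with an adjusted p of 0.999 each by edgeR. The treatments overlapped for all 30 members, against 0.046% of genes higher and 0.0% lower without overlap. In the cohorts alone, the median of the members was -0.10 in cohort 2 and 0.19 in cohort 1.

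In lysate after the run, no member passed the adjusted threshold either. Of 32 members 0 were called, against 0.0311% of all genes higher and 0.0% lower (edgeR). At an unadjusted p under 0.05, 8 members were lower and 0 higher, against 4.18% and 3.23% of all genes. The log2 fold was below 0 for 23 of 32 members, with a median of -0.15, against 49.5% of genes and a median of 0.002.

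Gabra2 had 17.9, 26.5 and 51.7 CPM after the run and 20.5, 40.0 and 76.9 in the home cage, and the treatments overlapped. Its log2 fold was -0.66 ± 0.20 (unadjusted p = 0.00345, adjusted p = 0.504, edgeR). Grin2b had 30.8, 40.2 and 74.5 CPM after the run and 37.8, 55.2 and 91.1 in the home cage, with a log2 fold of -0.31 ± 0.09 (unadjusted p = 0.00408, adjusted p = 0.520, edgeR). Grik3 stood at -0.24 ± 0.08, and Grik2, Gabrg1, Gria2 and Gabrb2 were also among the 8. The treatments overlapped for all 32 members in lysate, against 0.0373% of genes higher and 0.0311% lower without overlap.

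The number past the unadjusted threshold in lysate was 8 with DESeq2, 7 with limma-voom, 6 in cohort 1 alone and 1 in cohort 2 alone. It was 4 after the GC and length correction, where the median was -0.08. Across the tested members the run effect in lysate correlated with GC content at Spearman's rho 0.64, against 0.36 over 15482 genes. Over these settings the smallest adjusted p of a member was 0.119, for Gabra2 with DESeq2. The median of the members was -0.19 in cohort 2 alone and -0.15 in cohort 1 alone.

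**Figure D5:**
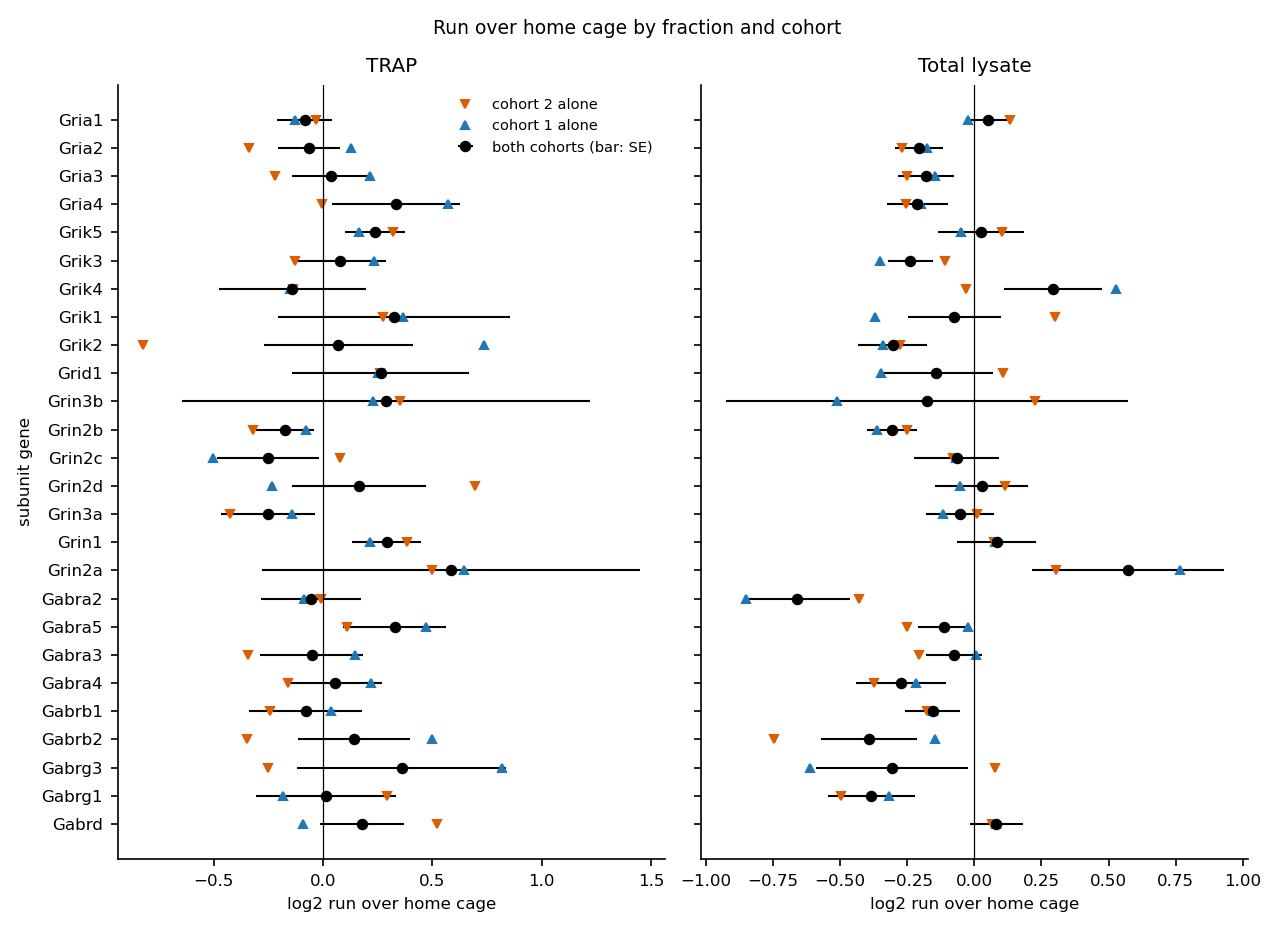
Log2 fold of run over home cage with its SE, by subunit, for TRAP and for lysate, each with both cohorts and with cohort 2 and cohort 1 alone. Among the members left out of the plot are Gabrr2 and Gabrq, and no member had an adjusted p under 0.05 in either fraction.

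The run effect in TRAP minus that in lysate was called for 0 of 32 members, and 0.0% of all genes were higher and 0.0% lower (edgeR). Below an unadjusted p of 0.05 by edgeR, 1 member was higher, Gabrr2 at 3.97 ± 1.65, and 1 lower, Gabrq at -4.62 ± 2.10, against 2.3% of all genes higher and 1.62% lower. Both were at the low levels given above, and both had an adjusted p of 1.0 by edgeR. Gabra2 stood at 0.58 ± 0.34 and Gria4 at 0.57 ± 0.35. The run effect also did not differ past the adjusted threshold between the cohorts for any member, with 0.0% of all genes in either direction and fraction. In TRAP the smallest p was that of Grik2, at -1.54 ± 0.58 (cohort 2 minus cohort 1, unadjusted p = 0.0160, adjusted p = 0.914, edgeR), followed by Gria2, Gabrb2 and Gabrd. Below an unadjusted p of 0.05, 0 members were higher and 1 lower there, against 2.2% of all genes higher and 2.08% lower. In lysate the smallest p was that of Grik1, at 0.68 ± 0.32 (unadjusted p = 0.0484, adjusted p = 1.0, edgeR), followed by Gabrb2, Grik4 and Grik3. In lysate 1 member was higher and 0 lower below an unadjusted p of 0.05, against 1.21% of all genes higher and 0.833% lower.

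Without the scaling on neurons, genes that work with these receptors were mostly lower in TRAP as well. Among all genes tested, 40.1% were lower and 34.0% higher. Of 15 auxiliary genes of AMPA receptors, 11 were lower with a median of -1.001, among them Cnih2, a cornichon that slows AMPA receptor closing, at -1.12, and Gsg1l, which dampens AMPA currents, at -1.30. Of 7 auxiliary genes of kainate and delta receptors 5 were lower, among them Neto2, a kainate auxiliary subunit, at -1.58 and Cbln2, a bridge to presynaptic neurexins, at -1.27. Of 19 scaffold genes of excitatory synapses 12 were lower, Dlg1 at -1.59 among them, and Homer3 was higher at 1.44. All 7 metabotropic glutamate receptors tested were lower, with Grm7 at -2.06 and Grm3, common in astrocytes, at -1.53. On the neuronal scale, where 74.7% of all genes were higher and 3.45% lower, only Grm7 of the genes named here stayed lower, at -0.47. There Cnih2 (0.47), Gsg1l (0.28), Cbln2 (0.31) and Homer3 (3.05) were called higher, and Neto2 (0.03), Dlg1 (0.003) and Grm3 (0.07) were not called.

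Without that scaling, 8 of 12 scaffold and auxiliary genes of GABA receptors were lower and 4 higher. Gabbr2, a GABA-B receptor subunit, was at -2.12. Gabarap, which binds gamma subunits and also serves autophagy, was at 1.49, Rdx, which anchors Gabra5 receptors to actin, at 0.93, Nlgn2, the neuroligin of inhibitory synapses, at 0.91, and Clptm1, which holds GABA-A receptors back in the cell, at 0.24. Of 15 genes of transmitter supply and clearance 12 were lower, while Glul, the glutamine synthetase of astrocytes and microglia, was higher at 1.67 and Slc12a2, a chloride importer, at 0.46. On the neuronal scale most of the GABA receptor scaffold and auxiliary genes were higher, while Gabbr2 stayed lower at -0.52. None of the genes of these lists was called after the run in TRAP or in lysate. The 7 metabotropic receptors were all below 0 in lysate after the run, with a median of -0.22.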

How the data were processed

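The deposited values were whole-number read counts per gene symbol, not normalised, in 1 table for 28 libraries. Poly(A) RNA was isolated with an RNeasy kit and made into Nextera XT libraries, per the labels' protocols. The submitters' processing notes name the build GRCm38 and, with no settings, STAR 2.7.7a, DESeq2 and featureCounts. Annotation, strand setting and treatment of multi-mapping reads are not stated in the sources used here. Columns without a cohort mark were taken as cohort 1, and 0 columns went unused. No pair of libraries of a group agreed within sampling noise (lowest chi-square per degree of freedom 67.5).

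The authors' counts were tested with edgeR 4.0.16 (R 4.3.3): quasi-likelihood F tests, TMM scaling, filterByExpr on the group, cohort as covariate, and Benjamini-Hochberg adjustment over all genes at 5%. CPM used TMM factors over 28 libraries, and CPM per kilobase used merged exons of GENCODE genes, which matched 95.7% of symbols and all 37 members. Per-mouse ratios added 0.5 CPM. The scale on neurons replaced TMM by the summed counts of 15 pan-neuronal genes. Alternatives were other scalings, no filter, DESeq2 1.42.0, limma-voom (limma 3.58.1), no cohort term, each cohort alone, a loess correction for GC content and length (span 0.4), mice left out and a replicate block. The main tests were first tested on simulated data with 200 changed genes. The simulated libraries held no cohort effect, GC effect or pairing, so they do not show how the tests handle these.

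The titles tie each TRAP library to the lysate library of the same mouse. The deviations of each library were taken from the mean of its group and cohort. Their correlation within such a pair ran from -0.05 to 0.12, with 2 of 14 pairs above 0.1. In 9 of 14 cases the TRAP library matched its own partner best among only 3 or 4 lysate libraries of its treatment and cohort. Nothing in the labels says that mice of a group came from separate litters. In the run comparisons within a fraction, p-values thus measure the spread between these mice. The main fits that hold both fractions did not pair the libraries of a mouse, so their p-values measure the spread between libraries. A block on the mouse was an alternative for these fits, except for the cohort difference of the TRAP over lysate ratio, which had none.

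Members, lists and pairs were chosen with earlier results of these data known. Values are given in full for the 12 members with the highest level per length, the highest and lowest fold of each class, members called on the neuronal scale, and the 4 smallest p-values of each run comparison and cohort difference. Other genes came from fixed lists, up to 4 per list. Values of some members, and of 1 gene of a list, are not reported here, while counts, medians and correlations over the members include them, and figures leave them out.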

Additional observations from a re-analysis of the deposited data

Results flagged for a closer look

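The 32 members tested between the fractions were checked in each of the 4 groups of 7 libraries. Each group mixed libraries of both cohorts, whose levels often differed. In 10 of these 128 cases 1 library lay far from the other 6 (values in CPM), where chance would give roughly 1 in 20 if the cohorts were alike. These were Grin3a at 15.4 in run TRAP of Female2 of cohort 1, Grik3 at 16.1 in run TRAP of Male2 of cohort 1, Gria4 at 24.0 in home cage TRAP of Female2 of cohort 1, and Grin2d at 5.30 and Grik4 at 7.89 in home cage TRAP of Female2 of cohort 2. Low members stood out likewise: Grin2a at 2.37 in home cage TRAP of Female1 of cohort 2, Gabrr2 at 0.0885 in home cage TRAP of Male2 of cohort 1, and Gabrq at 0.0886 in run TRAP of Female2, 1.83 in run lysate of Female2 and 1.26 in home cage lysate of Male2, all of cohort 1.

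The TRAP over lysate log2 fold differed between the cohorts for 16 members, 14 of them given here, by edgeR's interaction test, each lower in cohort 2 than in cohort 1. Among glutamate receptor subunits the difference was -1.002 for Gria1, -0.55 for Gria2, -0.70 for Gria3, -1.10 for Grik2, -1.28 for Grik3, -0.78 for Grik5, -0.84 for Grin1, -0.66 for Grin2b and -0.83 for Grin2c. Among GABA-A subunits it was -1.27 for Gabra3, -0.85 for Gabra4, -1.07 for Gabra5, -0.96 for Gabrb1 and -1.45 for Gabrb2. Several of these calls were lost under an alternative. Without the run mice labelled Male1 and Female2 of cohort 2, the edgeR adjusted p was 0.0828 for Gria2, 0.104 for Gria3, 0.151 for Grik2, 0.162 for Gabra4 and 0.0816 for Gabrb1. With the GC and length correction it was 0.117 for Gria2, 0.159 for Grin2b, 0.151 for Grin2c and 0.0531 for Gabrb1. With RLE size factors it was 0.0536 for Grin2c and 0.0623 for Gabra4.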

How the results depend on the processing

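The 0 calls of members in both run comparisons were the same under all 11 alternatives and with each of 14 mice left out. Between the fractions, the 30 members lower in TRAP became 23 in cohort 1 alone (Grid1, Grin2a, Grin2c, Gabrb1, Gabrg3 and Gabrq among those no longer called), and the 1 higher became 0 with library totals alone, without the cohort term or with the GC and length correction. With each mouse left out the count of higher members ran from 0 to 1, with 0 without the home cage mouse Female2 of cohort 1, and Grik5 ran from 0.27 to 0.48. Grik5 turned to -0.11 with library totals alone, where the scaling moves the median of all genes to -0.71 against -0.20, and to -0.048 in cohort 2 alone, where Grin3b was the one called (1.22, adjusted p = 0.0251, edgeR).

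On the neuronal scale 11 members were higher, but 6 with TMM on the neuronal list alone and 7 in cohort 2 alone, and 12 were lower, but 6 with the GC and length correction and 7 in cohort 1 alone. The GC correction and the single cohorts on this scale were chosen after seeing the data. Grin1 turned to -0.036 with TMM on the list alone, and with the GC correction Gria2 turned to 0.28 and Gria3 to 0.080. With each mouse left out, calls were lost for Grin1 in 6 of 14 cases, Grin2d in 3, and Gabrr2 (-3.03 to -1.73) and Grin3a in 1 each. Uncalled cohort differences of the run effect in TRAP turned for Gabrb2 (0.0081) and Gabrd (-0.11) without the run mice labelled Male1 and Female2 of cohort 2, and for Gria2 (0.22) with the GC correction. The cause was not tested for any of these.

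With the mouse as a replicate block, 30 members were lower and 1 higher between the fractions, and on the neuronal scale 13 were lower and 10 higher. Run and home cage mice share only numbers: their same-number correlations ran from -0.07 to 0.05 in TRAP and from -0.22 to 0.04 in lysate, and a block on the number left 0 calls, with 3 members below an unadjusted p of 0.05 in lysate against 8. Of the 12 members highest per length, 11 stayed so with the longest transcript in place of merged exons. Depth limits Grin2a, Grin3b, Gabrr2 and Gabrq, and the 5 untested subunits most.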

Other observations

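Endothelial marker genes, and some mural ones, were higher in TRAP than in lysate, beside the lower receptor subunits. Over all genes tested 34.0% were higher and 40.1% lower. Of 10 endothelial genes 10 were higher by edgeR's quasi-likelihood test, with a median log2 fold of 1.92, and of 8 mural genes 4 were higher and 1 lower, with a median of 0.60. Astrocyte genes had a median of -0.73 with 9 of 10 lower, Aqp4 at -1.37, and oligodendrocyte genes one of -1.40 with 9 of 10 lower. After the run no gene of these lists was called in TRAP, where the endothelial list had a median of -0.43 with 10 of 10 below 0.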
